A study of Mus musculus with 8 samples.

Results

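Mouse SV-LECs express 10 genes whose products hydroxylate procollagen or guard it on its way out of the endoplasmic reticulum, and their RNA was followed here before and after TGFβ1. The genes are the prolyl 4-hydroxylase subunits P4ha1, P4ha2, P4ha3 and P4hb, the lysyl hydroxylases Plod1, Plod2 and Plod3, the prolyl 3-hydroxylase P3h1 with its partner Crtap, and the collagen chaperone Serpinh1. They were chosen by symbol from the 55471 genes of the count table, and each symbol matched 1 row. All 10 genes passed the filter on low counts, with between 1317 and 58443 reads per library. SV-LEC is a lymphatic endothelial line from mesenteric adventitial tissue of the mouse that was immortalized with SV40. All groups carried this immortalization. The cells were left untreated or were given 10 ng/ml TGFβ1 for 72 h, and polyadenylated RNA of 4 libraries per group was sequenced. The paper's methods call the 4 samples of a group technical replicates, so every error and p-value below measures the spread between libraries of a single line and not the spread between independent cultures.

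Collagen chains are modified while they are still single and unfolded. Prolyl 4-hydroxylase is a tetramer of catalytic α subunits, encoded by P4ha1, P4ha2 and P4ha3, and β subunits, encoded by P4hb, which is also protein disulfide isomerase. Its product, 4-hydroxyproline, gives the triple helix its thermal stability. Lysyl hydroxylases prepare lysines for glycosylation and for the cross-links between collagen molecules, and the enzyme encoded by Plod2 is known for hydroxylating the telopeptides. P3h1, Crtap and the cyclophilin Ppib form the complex that 3-hydroxylates single prolines of fibrillar chains, and Serpinh1 encodes HSP47, which binds the folded triple helix. The hydroxylases need oxygen, 2-oxoglutarate, iron and ascorbate, and P4ha1, P4ha2 and Plod2 are textbook targets of the hypoxia-inducible factors. TGFβ1 is a known inducer of matrix production in many cell types.

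The promoters of P4ha1, P4ha2, P4hb and Serpinh1 are shown because P4ha1, P4ha2 and the hypoxia response genes described further below were lower in treated cells, while P4hb was higher and Serpinh1 was close to the threshold of the test. Each sequence holds the 250 bases before the RefSeq start of the gene in GRCm38.p6, written 5′ to 3′ on the strand of the gene. Capitals mark ACGTG or GCGTG, the core letters of a hypoxia response element, on either strand. The windows lie at chr10:59323046-59323295 on the plus strand for P4ha1, at chr11:54100674-54100923 on the plus strand for P4ha2, at chr11:120573254-120573503 on the minus strand for P4hb and at chr7:99353240-99353489 on the minus strand for Serpinh1. GENCODE M21 lists an earlier first start for P4ha2, so that window lies inside the gene as annotated there.
P4ha1: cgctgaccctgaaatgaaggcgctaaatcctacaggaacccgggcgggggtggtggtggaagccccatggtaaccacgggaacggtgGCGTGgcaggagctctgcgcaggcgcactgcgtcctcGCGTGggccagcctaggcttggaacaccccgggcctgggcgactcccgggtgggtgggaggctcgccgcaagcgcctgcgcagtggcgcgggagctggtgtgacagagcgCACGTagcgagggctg
P4ha2: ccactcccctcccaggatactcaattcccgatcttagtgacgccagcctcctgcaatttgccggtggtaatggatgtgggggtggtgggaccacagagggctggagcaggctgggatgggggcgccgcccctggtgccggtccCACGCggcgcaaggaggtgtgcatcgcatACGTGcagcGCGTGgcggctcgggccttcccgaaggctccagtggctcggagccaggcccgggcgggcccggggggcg
P4hb: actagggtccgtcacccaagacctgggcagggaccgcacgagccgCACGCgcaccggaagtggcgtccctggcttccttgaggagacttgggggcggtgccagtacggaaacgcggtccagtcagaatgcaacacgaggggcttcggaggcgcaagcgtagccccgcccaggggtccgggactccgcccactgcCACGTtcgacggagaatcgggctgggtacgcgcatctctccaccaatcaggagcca
Serpinh1: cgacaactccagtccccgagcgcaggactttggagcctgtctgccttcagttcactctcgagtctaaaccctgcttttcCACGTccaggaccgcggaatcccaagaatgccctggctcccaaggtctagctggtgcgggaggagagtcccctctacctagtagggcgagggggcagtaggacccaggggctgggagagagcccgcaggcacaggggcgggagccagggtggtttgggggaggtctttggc

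P4ha1 and P4ha2, the lower pair, each held 1 ACGTG and 2 GCGTG. The ACGTG of P4ha1 began 16 bases before the start and that of P4ha2 78 bases before it. P4hb, the higher gene, also held 1 of each core, with ACGTG beginning 56 bases before the start, and Serpinh1 held 1 ACGTG, 171 bases before it. Among the genes not shown, Plod1, which was also lower, held 1 GCGTG and no ACGTG, while Plod3, which was higher, held 1 ACGTG and 3 GCGTG. Of the 9 genes with a window in the RefSeq table, 8 held at least 1 of the cores and P4ha3 held none, while 38.6% of all 32851 windows of this length held at least 1. The windows of the 9 genes were between 53.6 and 70% G and C against a median of 52.4% over all windows, and both cores contain CG. CAGAC, the core letters bound by SMAD proteins, stood in 2 of the 9, Plod1 and Serpinh1, against 42.2% of all windows. CCAAT stood in 3 of the 9, P4hb, Plod3 and P3h1, against 33.8%. These matches describe the letters only, and binding of a factor was not tested.

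TGFβ1-treated cells had higher levels of 6 of the 10 genes and lower levels of the other 4 at an FDR under 0.05 in edgeR's likelihood ratio test over the 13818 genes that passed the filter. Plod2 and P4hb changed most. The treatment changed much of the transcriptome: 75.6% of the genes tested were called, 37.6% as higher and 38.0% as lower, so that a call by itself sets none of these 10 genes apart. In 8 of the 10 genes the libraries of the groups did not overlap in CPM, the count of a gene scaled to the size of its library by TMM factors, compared with 69.8% of the genes tested. The median absolute log2 fold change over all genes tested was 0.39. A larger absolute change was found in 15.6% of the genes for Plod2, in 22.9% for P4hb and in 49.5% for P3h1, and in between 63.2% and 77.5% for the other 7 genes. The 10 genes together took between 0.495% and 0.542% of the reads in untreated libraries and between 0.596% and 0.631% in treated ones.

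Total counts per library were between 18952504 and 26386941, and replicate libraries differed by more than counting noise, with chi-square values per degree of freedom between 2.37 and 7.84. The first principal component held 88.8% of the variance and the second 3.26%. Scaling by total counts in place of TMM factors moved the median log2 fold change of all genes by −0.0672, and none of the 10 genes changed direction under it. The levels are those of bulk RNA, in which fewer cells expressing a gene and less RNA per cell cannot be told apart. Of the 10 lymphatic endothelial markers examined, 4 passed the filter, and Pdpn, which encodes podoplanin, made up most of their signal at 342 CPM in untreated and 313 in treated cells. The defining markers Prox1, Lyve1, Pecam1, Cdh5 and Ccl21a had between 0 and 5 reads in every library and Vwf had between 0 and 10, so most markers that define the labelled cell type were close to absent in both groups.

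**Figure D1:**
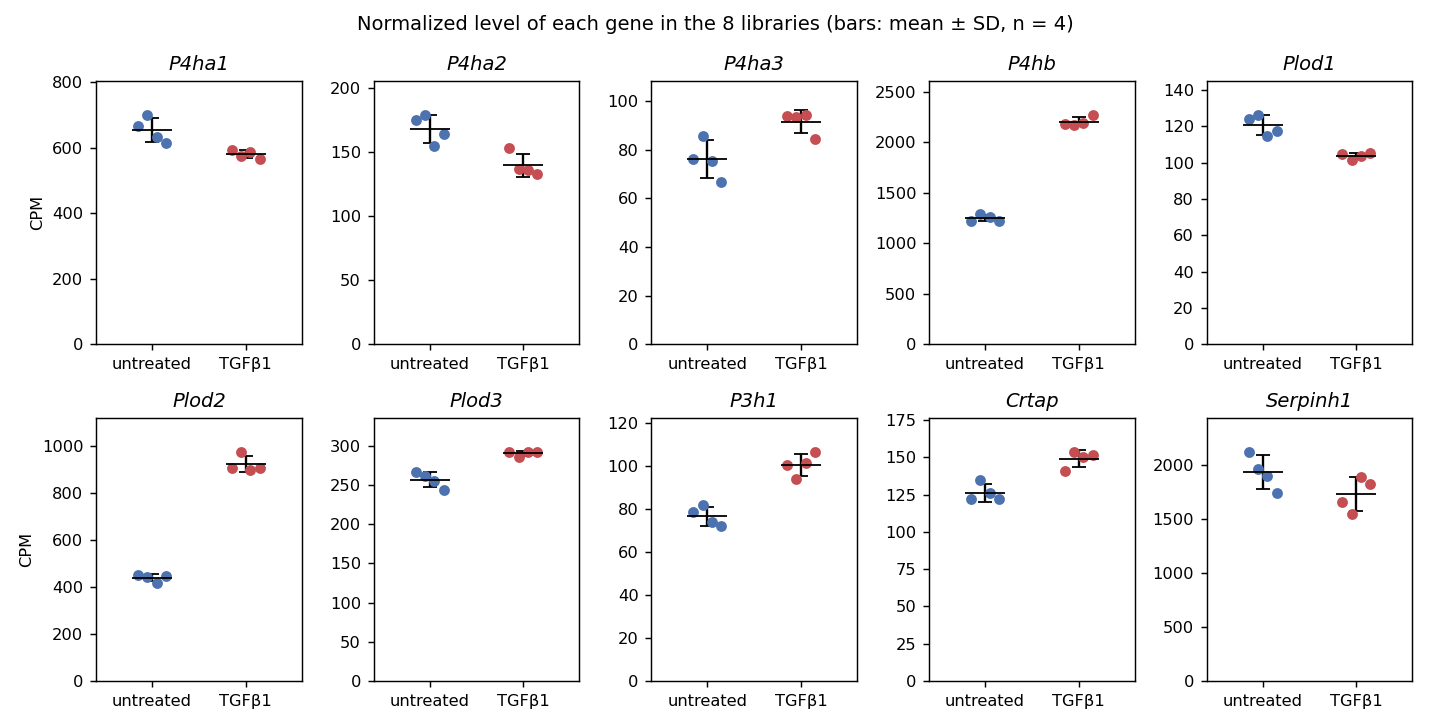
CPM (y axis, from 0) of each of the 10 genes in the 4 untreated and 4 TGFβ1-treated libraries. Points are libraries and bars are the mean ± SD of a group. The groups lie far apart in Plod2 and P4hb, and they overlap in P4ha3 and Serpinh1.

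The prolyl 4-hydroxylase subunits did not move together: the β subunit gene rose most, while P4ha1 and P4ha2 fell and P4ha3 rose, each by a small amount. P4hb stood at 1225, 1288, 1263 and 1223 CPM in untreated libraries 1 to 4 and at 2187, 2168, 2191 and 2268 CPM in treated libraries 1 to 4. Each treated library was far above each untreated one. The mean rose from 1250 ± 31.4 to 2204 ± 44.4 CPM (SD, n = 4), with a log2 fold change of 0.82 (SE 0.0379, edgeR FDR 5.61e-101) or 1.76-fold. P4hb lies at chr11:120560298-120573253 on the minus strand.

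P4ha1, the most abundant α subunit gene, stood at 666, 699, 633 and 616 CPM in untreated and at 595, 576, 589 and 565 CPM in treated libraries. The highest treated library was just below the lowest untreated one. The log2 fold change was −0.17 (SE 0.0460, edgeR FDR 0.000361). P4ha1 lies at chr10:59323296-59373304 on the plus strand.

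P4ha2 stood at 175, 178, 155 and 164 CPM in untreated and at 153, 136, 136 and 133 CPM in treated libraries. The groups were separate, with untreated library 3 and treated library 1 next to each other. The log2 fold change was −0.27 (SE 0.0577, edgeR FDR 6.03e-06). P4ha2 lies at chr11:54100095-54131665 on the plus strand and has 15 annotated transcripts.

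P4ha3, the least abundant α subunit gene in CPM, stood at 76.3, 85.8, 75.1 and 66.8 CPM in untreated and at 93.9, 93.4, 94.0 and 84.3 CPM in treated libraries. The groups overlapped, since treated library 4 was below untreated library 2. The log2 fold change was 0.26 (SE 0.0689, edgeR FDR 0.000219). P4ha3 lies at chr7:100285520-100319699 on the plus strand.

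The balance of the subunits was compared within each library, as the log2 ratio of the counts of a pair of genes, which does not depend on how libraries are scaled. Differences between groups were tested by an exact two-sided permutation test over libraries, adjusted over the 11 pairs of genes compared. With 4 libraries against 4 the smallest possible p is 0.0286, and pairs that reached it had an adjusted p of 0.0393. P4ha1 to P4hb fell by 0.99 (SE 0.0432) and P4ha2 to P4hb fell by 1.09 (SE 0.0721), each lower in 4 of 4 treated libraries and each reaching that p. P4ha3 to P4ha2 increased by 0.54 (SE 0.0735) and reached it too, with 4 of 4 treated libraries above every untreated one. P4ha1 to P4ha2 differed by 0.10 (SE 0.0443) and its groups overlapped (exact p and adjusted p both 0.0857). P4hb by itself separated the groups, so a ratio that holds it mostly repeats its rise. Of all single genes tested, 69.8% separated the groups, and the share over all pairs of genes was not computed. A ratio that reached the smallest p is therefore not set apart by that.

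Levels of different genes were compared as CPM per kb of exon. P4ha1 held 75.7% ± 0.324 of the summed α subunit level in untreated and 73.3% ± 0.601 in treated cells (SD, n = 4). P4ha2 went from 12.8% to 11.6% and P4ha3 from 11.5% to 15.1%. The summed α subunit level was 210 ± 12.7 CPM per kb in untreated and 193 ± 5.71 in treated cells. Divided by the level of P4hb it was 0.481 ± 0.0236 in untreated and 0.250 ± 0.0115 in treated cells. These values depend on the transcripts counted. With the length of the principal transcript in place of all exonic bases, an alternative chosen after seeing the data, P4ha2 held 28.0% in untreated and 25.5% in treated cells. P4ha1 then held 60.1% and 58.7%, and P4ha3 held 11.9% and 15.8%. The sum was 269 and 245 CPM per kb, and divided by the level of P4hb it was 0.616 and 0.318.

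Of the lysyl hydroxylase genes, Plod2 doubled in CPM, Plod3 rose by a small amount and Plod1 fell by a small amount. Plod2 stood at 449.8, 442, 417 and 444 CPM in untreated libraries 1 to 4 and at 907, 972, 898 and 905 CPM in treated libraries 1 to 4. Treated library 2 was above the other three, and the lowest treated library was still far above the highest untreated one. The mean rose from 438 ± 14.5 to 920.5 ± 34.7 CPM (SD, n = 4), with a log2 fold change of 1.07 (SE 0.0427, edgeR FDR 2.57e-134) or 2.10-fold. Plod2 lies at chr9:92542223-92608428 on the plus strand. Of its exonic bases, 346 (6.42%) overlap the unclassified gene Gm38391 on the opposite strand, which had between 37 and 68 reads per library against at least 8756 for Plod2.

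Plod3 encodes an enzyme that also carries collagen glucosyltransferase and galactosyltransferase activity. It stood at 267, 262, 255 and 244 CPM in untreated and at 292, 286, 292 and 292 CPM in treated libraries. The groups did not overlap, and the log2 fold change was 0.18 (SE 0.0400, edgeR FDR 2.07e-05). Plod3 lies at chr5:136987019-136996648 on the plus strand, and 529 of its exonic bases (11.7%) overlap Znhit1 on the opposite strand, which had between 495 and 1067 reads per library. The sources used here do not say whether counting used the strand of the reads, so the small change of Plod3 is uncertain to that extent.

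Plod1 stood at 124, 126, 115 and 118 CPM in untreated and at 105, 102, 104 and 105 CPM in treated libraries. All treated libraries were below all untreated ones. The log2 fold change was −0.22 (SE 0.0452, edgeR FDR 3.38e-06). Plod1 lies at chr4:147909753-147936767 on the minus strand.

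Within libraries, the log2 ratio of Plod2 to Plod1 increased by 1.29 (SE 0.0429) and that of Plod2 to Plod3 by 0.89 (SE 0.0468), while Plod1 to Plod3 fell by 0.39 (SE 0.0242). In each of these pairs the 4 treated libraries lay apart from the 4 untreated ones, and each reached the smallest possible p (exact permutation test, p = 0.0286, adjusted p = 0.0393). The pairs that hold Plod2 mostly repeat its rise. Per kb of exon, Plod2 was 4.56 times the level of Plod1 in untreated and 11.1 times in treated cells, and it was 1.43 and 2.66 times the level of Plod3. The summed lysyl hydroxylase level was 156 ± 4.58 CPM per kb in untreated and 250.3 ± 5.62 in treated cells (SD, n = 4). Plod2 made up 52.1% ± 0.987 of it in untreated and 68.2% ± 1.02 in treated cells. Plod3 went from 36.5% to 25.7% of the sum although its own level was higher, and Plod1 went from 11.4% to 6.13%. With principal transcript lengths the sum was 236 and 373 CPM per kb, and the share of Plod2 was 51.0% in untreated and 67.7% in treated cells.

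**Figure D2:**
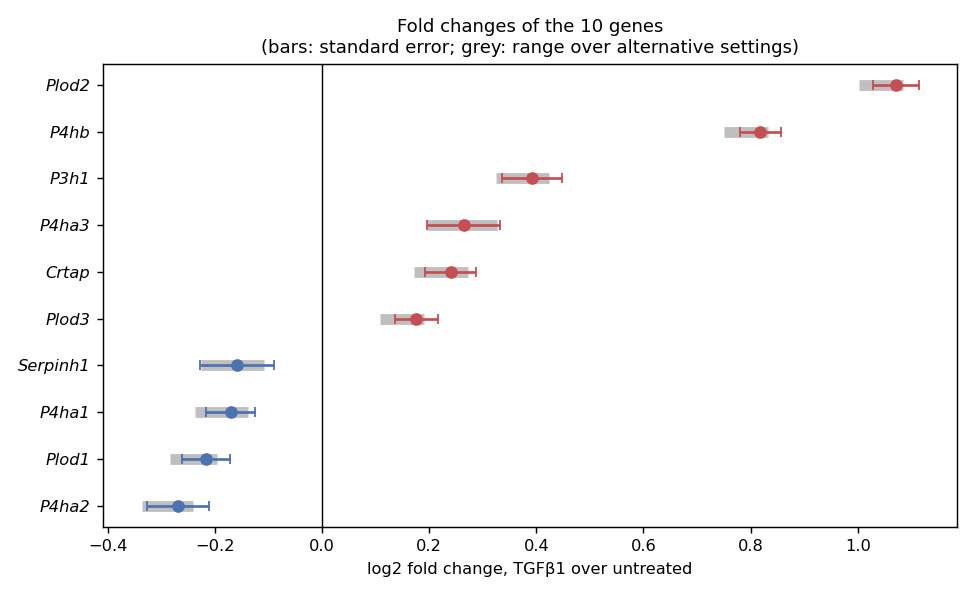
Log2 fold change of TGFβ1-treated over untreated cells (x axis) for each of the 10 genes from edgeR. Points with bars are the estimate and its SE, and the grey band is the range over the alternative settings. Plod2 at 1.07 and P4hb at 0.82 stand to the right of the other 8 genes, which lie between −0.27 and 0.39, and no grey band crosses 0.

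Both members of the 3-hydroxylase complex in the group rose by modest amounts, as did their partner Ppib. P3h1, the catalytic subunit, stood at 78.6, 81.8, 73.8 and 71.9 CPM in untreated and at 100.4, 93.8, 101 and 106 CPM in treated libraries. Every treated library was above every untreated one, and the log2 fold change was 0.39 (SE 0.0556, edgeR FDR 5.34e-12). P3h1 lies at chr4:119232915-119248975 on the plus strand.

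Crtap, a non-catalytic subunit, stood at 122, 135, 126 and 122 CPM in untreated and at 141, 154, 150.4 and 151 CPM in treated libraries. The groups did not overlap, with treated library 1 next to untreated library 2. The log2 fold change was 0.24 (SE 0.0479, edgeR FDR 1.15e-06). Crtap lies at chr9:114375134-114390675 on the minus strand.

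Ppib, which encodes cyclophilin B, rose from 301 to 363 CPM, with a log2 fold change of 0.27 (SE 0.0409, edgeR FDR 8.15e-11). The log2 ratio of P3h1 to Crtap differed between groups by 0.15 (SE 0.0597) and that of P3h1 to Ppib by 0.12 (SE 0.0443). Both pairs overlapped between groups and missed the threshold (exact permutation test, p = 0.0571, adjusted p = 0.0629 for each). At this number of libraries no change in the proportions of the complex was detectable.

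Serpinh1 was the only gene of the 10 whose call depended on single libraries. It stood at 2123, 1970, 1902 and 1746 CPM in untreated libraries 1 to 4 and at 1664, 1548, 1894 and 1831 CPM in treated libraries 1 to 4. The groups overlapped, since untreated library 4 was below treated libraries 3 and 4. The mean was 1936 ± 157 CPM in untreated and 1734 ± 157 in treated cells (SD, n = 4), a log2 fold change of −0.16 (SE 0.0693, edgeR FDR 0.0306). The quasi-likelihood test gave an FDR of 0.0380 and DESeq2 an adjusted p of 0.0328. Without untreated library 1 the log2 fold change was −0.12 (edgeR FDR 0.117) and without untreated library 2 it was −0.15 (edgeR FDR 0.0682). Without treated library 1 it was −0.14 (edgeR FDR 0.0917) and without treated library 2 it was −0.11 (edgeR FDR 0.135). Serpinh1 lies at chr7:99345376-99353239 on the minus strand.

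Type I collagen is among the main clients of HSP47. Col1a1, which encodes its α1 chain, went from 3459 ± 611 to 6057 ± 530 CPM (SD, n = 4), with a log2 fold change of 0.81 (SE 0.104, edgeR FDR 3.84e-14). The log2 ratio of Serpinh1 to Col1a1 fell by 0.98 (SE 0.0806) and that of Serpinh1 to P4hb fell by 0.98 (SE 0.0836). Both were lower in 4 of 4 treated libraries than in every untreated one (exact permutation test, p = 0.0286, adjusted p = 0.0393 for each). They mostly repeat the rises of Col1a1 and P4hb. Per kb of exon, Serpinh1 was 1.52 times the level of Col1a1 in untreated and 0.769 times in treated cells. Col1a1 was the only procollagen gene set against Serpinh1 in this way. Of the 13 procollagen genes tested, 8 were higher and 3 were lower. Among abundant chains, Col1a2 (log2 fold change −0.08, not called), Col3a1 (−0.92) and Col5a2 (−0.31) did not rise. The ratio therefore describes Col1a1 and not the procollagen genes together.

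**Figure D3:**
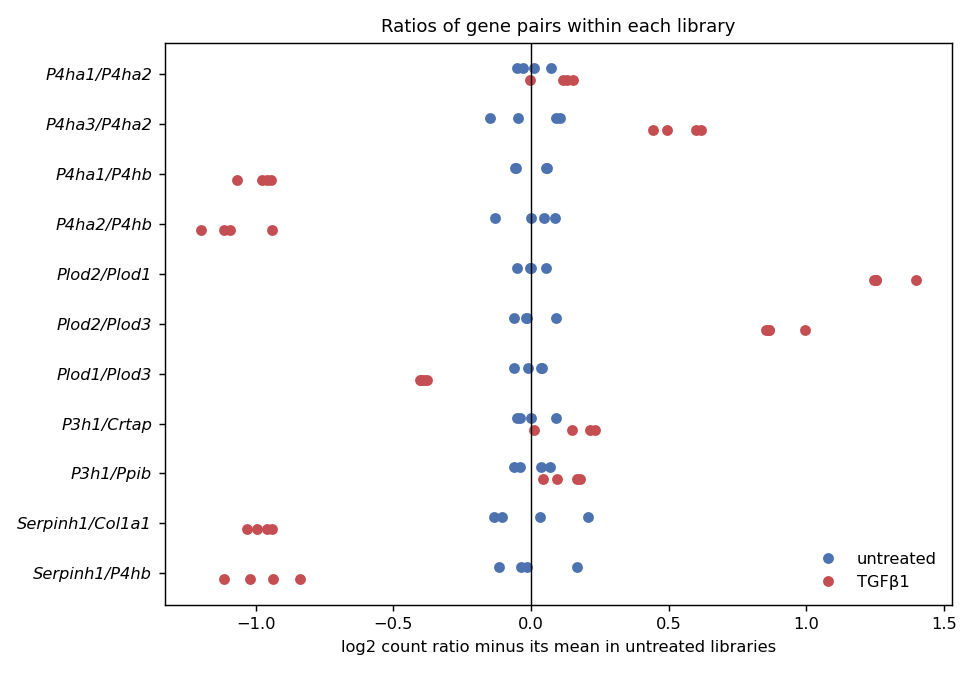
Log2 count ratio of each of the 11 pairs of genes in each library, minus the mean of that ratio in untreated libraries (x axis). Points are libraries of the untreated and TGFβ1 groups. The treated libraries stand apart in 8 pairs, near 1.29 for Plod2 to Plod1 and near −0.99 for P4ha1 to P4hb, and they overlap the untreated ones in P4ha1 to P4ha2, P3h1 to Crtap and P3h1 to Ppib. The share of all pairs of genes that stand apart was not computed.

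In level per length the 10 genes spanned a wide range, with Serpinh1 and P4hb at the top in both groups. In untreated cells the order was Serpinh1 at 792 ± 64.1 CPM per kb, P4hb at 437 ± 10.98, P4ha1 at 159 ± 8.94, Plod2 at 81.3 ± 2.697 and Crtap at 71.2 ± 3.51 (SD, n = 4). Plod3 followed at 56.9 ± 2.17, P4ha2 at 26.9 ± 1.72, P4ha3 at 24.2 ± 2.48, P3h1 at 19.9 ± 1.17 and Plod1 at 17.8 ± 0.788. Of these neighbours, P4ha2 and P4ha3 overlapped between libraries.

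In treated cells P4hb at 770.2 ± 15.5 and Serpinh1 at 709.9 ± 64.4 CPM per kb overlapped in their libraries, and Plod2 at 171 ± 6.44 stood above P4ha1 at 141 ± 3.22. Crtap at 84.1 ± 3.14 and Plod3 at 64.3 ± 0.621 kept their places by all exonic bases. P4ha3 at 29.2 ± 1.51, P3h1 at 26.1 ± 1.35 and P4ha2 at 22.3 ± 1.47 overlapped from neighbour to neighbour, and Plod1 was again lowest at 15.4 ± 0.240 on this length. With principal transcript lengths the first 4 places of each group were the same, whereas P4ha2 stood at 75.3 CPM per kb in untreated and 62.5 in treated cells and Plod1 at 37.2 and 32.01. On these lengths P3h1 was lowest in untreated cells at 25.7 CPM per kb and Plod1 in treated cells, and Plod3 at 78.4 stood above Crtap at 75.4 in untreated cells.

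**Figure D4:**
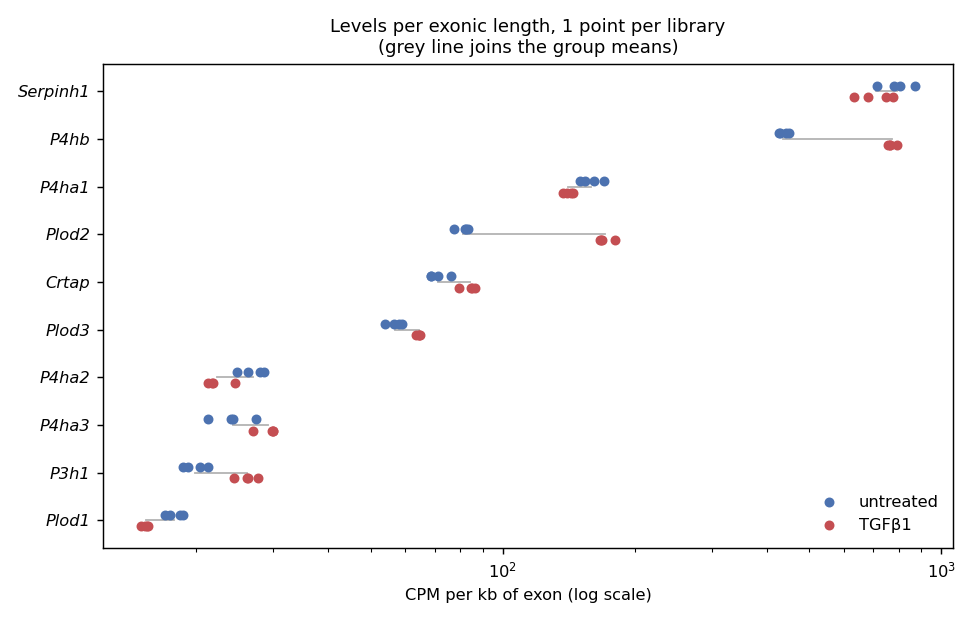
Level of each of the 10 genes in CPM per kb of exon (x axis, log scale), with 1 point per library and a grey line between the group means. Plod2 moves past P4ha1 from 81.3 to 171 CPM per kb, and the treated libraries of P4hb reach those of Serpinh1.

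The other genes of the pathway were examined as lists, each described by how many of its tested genes were called and by its median log2 fold change. Over all genes tested, 37.6% were higher, 38.0% were lower and the median was −0.0064, and a list whose shares are near these is not set apart by its counts. Of the 13 tested partners in collagen modification and export, 8 (61.5%) were higher and 4 (30.8%) were lower, with a median of 0.27. Fkbp14, which encodes an endoplasmic reticulum prolyl isomerase, rose from 28.2 to 76.6 CPM, with a log2 fold change of 1.44 (SE 0.0652, edgeR FDR 1.49e-106). P3h2, another prolyl 3-hydroxylase, rose by 0.86 on the log2 scale (SE 0.256, edgeR FDR 0.00101), from 0.826 to 1.48 CPM. Kdelr3, a receptor that returns proteins to the endoplasmic reticulum, rose by 0.77 on the log2 scale. Colgalt1, a collagen galactosyltransferase, stood at 225 CPM in untreated and 231 in treated cells and was not called (log2 fold change 0.04, edgeR FDR 0.320, −0.03 when scaled by total counts).

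Of the 13 procollagen genes, 8 (61.5%) were higher and 3 (23.1%) were lower, with a median of 0.81. Their summed level overlapped between the groups, at 21490 to 25640 CPM in untreated and 22790 to 25000 CPM in treated libraries. The largest rises were in 3 chains of fibrillar collagens. Col2a1 went from 0.274 to 5.24 CPM (log2 fold change 4.26), Col11a1 from 31.9 to 494.5 CPM (3.95) and Col27a1 from 5.41 to 20.2 CPM (1.89). Col2a1 had between 3 and 9 reads in untreated and between 76 and 131 in treated libraries. It passed the filter through the treated libraries, so a large rise was nearly fixed in advance for it. Col3a1 fell from 3408 to 1805 CPM (−0.92), Col5a2 fell by 0.31 on the log2 scale, and Col24a1 was at 0.828 and 0.524 CPM (−0.63, edgeR FDR 0.0302, DESeq2 adjusted p 0.114), a call that was also lost in 5 of the 8 fits without a library. Col1a2, the other chain of type I collagen, was at 5497 and 5195 CPM (−0.08, edgeR FDR 0.206), but was called as lower when scaled by total counts (−0.15, FDR 0.0163) or without untreated library 4 (−0.14, FDR 0.00278). Col4a2 was not called at 999 and 955 CPM (−0.06, edgeR FDR 0.371).

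Of the 7 tested disulfide isomerase genes other than P4hb, 6 (85.7%) were higher and none was lower, with a median of 0.39. Pdia3 went from 718 to 1651 CPM and its log2 fold change was 1.20 (SE 0.0420, edgeR FDR 5.78e-174), larger than that of P4hb. Pdia6 rose by 0.57 and Erp44 by 0.43 on the log2 scale. Tmx1 was at 108 CPM in untreated and 109 in treated cells and was not called, with a log2 fold change of 0.01 that turned to −0.06 when scaled by total counts.

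Of 12 genes for other 2-oxoglutarate dioxygenases, 4 (33.3%) were higher and 6 (50.0%) were lower, with a median of −0.15, and the 83.3% called lay close to the 75.6% of all genes. Egln3, an oxygen-sensing prolyl hydroxylase, fell from 43.3 to 15.99 CPM (log2 fold change −1.44) and P4htm, a membrane-bound prolyl 4-hydroxylase, from 2.26 to 0.887 CPM (−1.34). Phyhd1 was at 0.962 and 1.35 CPM (0.47, edgeR FDR 0.0419, DESeq2 adjusted p 0.116), and its call was also lost in 5 of the 8 fits that left out a library and when scaled by total counts (FDR 0.0821). Ogfod1 (0.09, edgeR FDR 0.0924, but 0.0480 among genes with 1 CPM or more in 4 libraries and 0.0456 without treated library 3) and Riox1 (−0.15, edgeR FDR 0.193) were not called.

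Of the 3 tested transporters of ascorbate and dehydroascorbate, Slc2a3 fell from 55.5 to 21.1 CPM (log2 fold change −1.39). Slc2a1 was at 95.8 and 89.5 CPM (−0.10, edgeR FDR 0.162, but −0.17 and called when scaled by total counts). Slc23a2 was at 43.3 and 44.1 CPM (0.02, edgeR FDR 0.689, −0.04 when scaled by total counts).

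Of the 12 hypoxia response genes, 9 (75.0%) were lower, 1 (8.33%) was higher and the median was −0.91. Egln3 and Slc2a1 stand in this list and in one of the lists above. Car9, a carbonic anhydrase, fell from 6.08 to 0.499 CPM (log2 fold change −3.58). It had between 103 and 187 reads in untreated and between 7 and 15 in treated libraries. Car9 passed the filter through the untreated libraries, so a call as lower was nearly fixed in advance for it. Ndrg1 fell from 157 to 52.9 CPM (−1.57), and Ero1a (listed as Ero1l), the oxidase that passes disulfide bonds to protein disulfide isomerase, fell from 403 to 145 CPM (−1.48) while P4hb rose. Adm was higher (0.77, from 2.45 to 4.22 CPM), and Ankrd37 was not called (0.27, edgeR FDR 0.0946). The lower levels of P4ha1 and P4ha2 went with this list, the higher level of Plod2 went against it, and the part of oxygen supply or of the hypoxia-inducible factors in these levels was not tested.

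**Figure D5:**
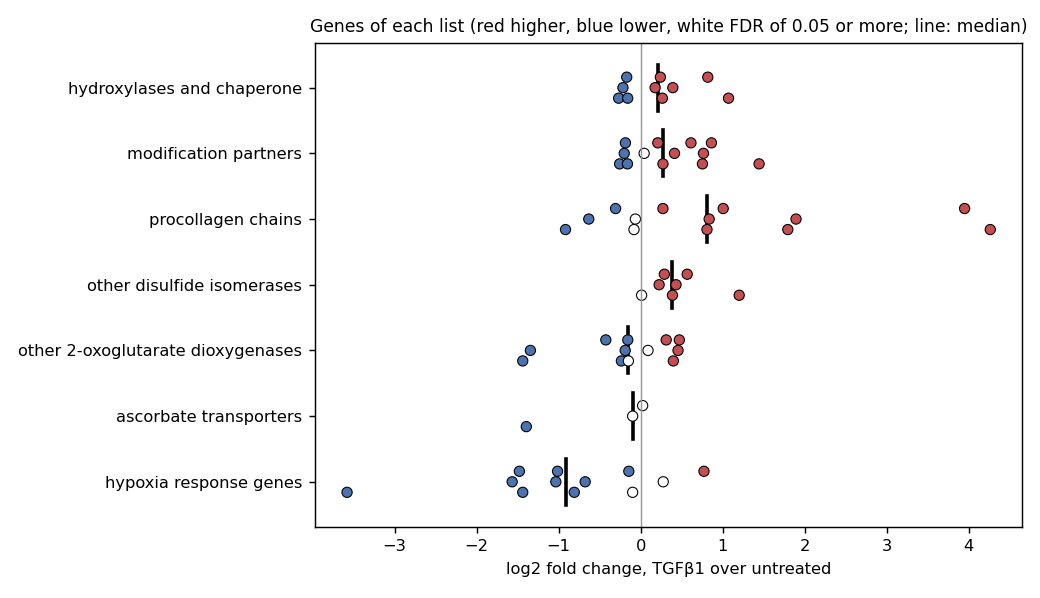
Log2 fold change of TGFβ1-treated over untreated cells (x axis) for every tested gene of the 10 collagen hydroxylase and chaperone genes and of 6 other lists. Each point is a gene, filled in red where called higher and in blue where called lower and white where not called, and the black line is the median of the list. The median is −0.91 for hypoxia response genes and 0.81 for procollagen chains.

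Markers of other cell types moved between the groups as well. Of the 6 tested mural and fibroblast markers, 3 were higher and 3 were lower (50.0% each, beside 37.6% and 38.0% of all genes), and their summed level went from between 605 and 642 CPM in untreated libraries to between 273 and 300.4 in treated ones. Dcn fell from 312 to 83.0 CPM (log2 fold change −1.91) and Pdgfra from 160 to 57.8 CPM (−1.47), both genes of matrix-producing fibroblasts, while on the log2 scale Thy1 fell by 1.07. Des, a muscle intermediate filament gene, rose by 2.09, and the mural markers Cspg4 and Pdgfrb rose by 0.85 and 0.63. Of the tested lymphatic endothelial markers, the VEGF receptor genes Kdr (log2 fold change 0.93) and Flt4 (0.44) were higher, Pdpn was lower (−0.13) and Tek was not called (−0.16, edgeR FDR 0.608), with a summed level of 357 to 394 CPM in untreated and 360 to 370.0 CPM in treated libraries. Of 8 epithelial and leukocyte markers, 3 passed the filter and were higher. The summed level of the 8 was between 6.70 and 8.95 CPM in untreated and between 18.6 and 19.7 in treated libraries. Cd68, which rose by 1.19 on the log2 scale from 6.96 to 15.9 CPM, made up most of it. Krt18 (2.47, from 0.226 to 1.24 CPM) and Krt8 (1.99, from 0.273 to 1.11 CPM) had at most 12 reads in any untreated library. Both passed the filter through the treated libraries, so a call as higher was nearly fixed in advance for them. Ptprc, Adgre1 and Epcam had between 0 and 7 reads in every library. The part of these markers in the levels of the 10 genes was not tested.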

How the data were processed

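The authors deposited raw counts of reads per gene in SV-LECs. Per the labels, libraries came from a stranded poly(A) kit and were read as single ends of 75 bases. Per the submitters' processing notes, bcl2fastq 2.20.0.422, STAR 2.7.3a and featureCounts 1.5.1 were used with GRCm38. Their settings, the annotation and the use of strand are not given in the sources used here. Samples were grouped by their labels.

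The counts went through edgeR 4.0.16 in R 4.3.3: glmFit and glmLRT, with Benjamini-Hochberg FDRs over 13818 genes and a threshold of 0.05, since the paper's methods name edgeR's likelihood ratio test and that threshold. The filter (filterByExpr on the groups) and the TMM scaling were chosen here. The replicate numbers were left out of the model, since the labels state no pairing. The alternatives were edgeR's quasi-likelihood test, glmTreat, DESeq2 1.42.0, its size factors, total counts, other filters and prior counts, an FDR of 0.01, a replicate block and each library left out. Exact permutation tests of ratios used scipy 1.17.1. Positions, overlaps and exonic lengths came from GENCODE M21 on GRCm38, and promoter sequences from RefSeq on GRCm38.p6, which matched 9 of the 10 genes; Plod2 had no entry. Scripts were tested on simulated data.

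The 10 genes and the lists were chosen with earlier results of these data known. Named in the text are all 10 genes, the ratio partners Ppib and Col1a1 and, in each list, the 3 tested genes with the largest absolute log2 fold change, those not called and those called against the direction of most, where there were 3 or fewer. Markers with few reads, Cspg4, Pdgfrb and the genes under Other observations are named outside that rule.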

Additional observations from a re-analysis of the deposited data

Results flagged for a closer look

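Of 126 groups of 4 values examined, 7 held a library whose gap to its nearest neighbour, as a share of the range of the group, was above Dixon's critical value for 4 samples. Chance flags about 1 group in 20. In treated library 2, Plod2 stood at 972 CPM against 898 to 907 in the other treated libraries, and Plod3 at 286 CPM against 292 in each of the others. The same library had log2 count ratios of 3.26 for Plod2 to Plod1 against 3.11 in each of the others, and of 1.76 for Plod2 to Plod3 against 1.62 to 1.63. P4ha3 in treated library 4 was 84.3 CPM against 93.4 to 94.0. Colgalt1 in treated library 1 was 238 CPM against 229 to 229.5, and Riox1 in untreated library 4 was 10.2 CPM against 12.02 to 12.3.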

How the results depend on the processing

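The direction of each of the 10 genes was the same under all 17 alternatives. P4hb and Plod2 also passed the threshold under all 17, with log2 fold changes between 0.75 and 0.83 and between 1.00 and 1.08. P4ha1, P4ha2, P4ha3, Plod1, Plod3, P3h1 and Crtap passed it under 16, the exception being glmTreat, which tests against a log2 fold change of 0.5 in place of 0. Serpinh1 passed under 11. The FDR of 0.01 is not among the 17 and was applied to the main fit. Serpinh1, at an FDR of 0.0306 in edgeR's likelihood ratio test, did not pass it, and the other genes did. Replicate numbers did not pair the libraries: deviations of untreated and treated libraries with the same number had correlations of −0.103, −0.059, −0.034 and −0.193. With the number as a replicate block, 6 of the 10 genes were higher and 3 lower, Serpinh1 being lost (log2 fold change −0.16, FDR 0.0579), and 10152 of all genes were called. With glmTreat, 2 of the 10 genes were higher and 0 lower, and 4149 of all genes were called, 2342 as higher. It also left 4 partners higher and 0 lower, 1 procollagen gene lower, 1 disulfide isomerase gene higher, 0 dioxygenase genes higher and 2 lower, and 1 lymphatic endothelial marker higher and 0 lower. Scaling by total counts gave 2 ascorbate transporters lower in place of 1 and turned the log2 fold changes of Colgalt1 to −0.0253, Tmx1 to −0.0561 and Slc23a2 to −0.0436. Without a filter on low counts, 4 lymphatic endothelial markers were higher and 2 lower, and Tmx1 was at −0.0185 and Slc23a2 at −0.0068. Keeping genes with 1 CPM or more in 4 libraries or more left 1 epithelial or leukocyte marker as higher. With each library left out in turn, between 1 and 2 hypoxia response genes were higher, the second being Ankrd37 without treated or untreated library 4, Tmx1 lay between −0.0199 and 0.0554 and Tek between −0.3036 and 0.0131. The exact permutation test of the ratios was not repeated without a library, since with 3 against 4 it allows no p under 0.0571. The libraries are technical replicates, which limits every error given here to that level.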

Other observations

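Further genes of the collagen modification machinery are given here for the complexes that they are known to form with the lysyl hydroxylases and were chosen after their values were seen. Fkbp10 encodes the prolyl isomerase FKBP65, which associates with the Plod2 enzyme. It rose from 371 ± 21.2 to 625 ± 19.3 CPM (SD, n = 4), with a log2 fold change of 0.75 (SE 0.0475, edgeR FDR 4.67e-55), in the direction of Plod2. P3h3 and P3h4 encode partners of the Plod1 enzyme. P3h4 fell from 170.1 ± 4.25 to 148 ± 6.78 CPM (log2 fold change −0.20, SE 0.0446, edgeR FDR 1.28e-05), and P3h3 rose from 48.6 ± 5.30 to 56.3 ± 2.01 CPM (log2 fold change 0.21, SE 0.0710, edgeR FDR 0.00497), so that one moved with Plod1 and the other against it. Tmem38b, an endoplasmic reticulum cation channel gene whose loss causes a brittle bone disease, went from 17.8 to 15.95 CPM (log2 fold change −0.16, edgeR FDR 0.0302).

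Among genes for the export and control of procollagen, Mia3, which encodes the receptor TANGO1 that loads procollagen into carriers, rose from 164 ± 2.59 to 219 ± 4.71 CPM (log2 fold change 0.41, SE 0.0380, edgeR FDR 1.17e-26). Its homologue Mia2 fell from 70.1 ± 1.68 to 61.6 ± 2.91 CPM (−0.19, SE 0.0493, edgeR FDR 0.000268). Creb3l1, a membrane-bound transcription factor that acts on type I collagen genes, rose from 142 ± 14.8 to 217 ± 10.1 CPM (0.61, SE 0.0663, edgeR FDR 1.2e-19). Sparc, a secreted collagen-binding glycoprotein, was the most abundant gene of that list and fell from 5856 ± 81.3 to 4900 ± 77.9 CPM (−0.26, SE 0.0359, edgeR FDR 2.46e-12).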
